A study of Mus musculus with 8 samples.

Results

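The 28 genes described here make, sense, move and store cholesterol. They were taken from a list of symbols, not by a threshold on their levels, and all 28 were among the 24888 genes of the count table. By role, 6 act in the control of SREBP2 (Srebf2, Scap, Insig1, Insig2, Mbtps1 and Mbtps2), 6 lead from acetyl-CoA through mevalonate to farnesyl diphosphate (Acat2, Mvk, Pmvk, Mvd, Idi1 and Fdps), 10 lead from squalene to cholesterol (Fdft1, Sqle, Lss, Cyp51, Tm7sf2, Nsdhl, Hsd17b7, Ebp, Sc5d and Dhcr7), and 6 act in transport, storage and uptake (Stard4, Npc1, Npc2, Soat1, Lipa and Scarb1). All 28 had at least 20 counts in 1 library or more of every comparison, so none was lost to the filter on low counts.

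The series holds 8 mouse RNA-seq libraries, 1 for each of 8 groups and without replicates, and all go back to the E14 line of embryonic stem cells (ESC). ESC, grown in fetal bovine serum with LIF and 2 kinase inhibitors, were taken untreated or after T0901317 (T09) for 3 days, a compound that activates the liver X receptors (LXR). Expanded potential stem cells (EPSC) were made by growing ESC for 5 passages in another medium, with serum replacement and additional inhibitors, and were also taken untreated or after 3 days with T09. Blastoids, aggregates of EPSC that model the blastocyst, made up the other 4 groups. Day 2 blastoids were harvested 48 hours after EPSC were transfected with siRNA against the LXR gene Nr1h2 (siNr1h2) or with the control labelled siNT. Day 5 blastoids came from EPSC labelled as treated with T09 and were picked by hand as Type I or Type III. The labels write the T09 dose as 1 uM/mL, from which the concentration is not clear, and list no T09 in the blastoid media. Each group is thus 1 library from 1 cell line, and a blastoid library is a mixture of cells.

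As background, SREBP2, the protein of Srebf2, is a membrane-bound transcription factor of the endoplasmic reticulum. When membrane cholesterol is low, the escort protein SCAP carries it to the Golgi, where the site-1 and site-2 proteases (Mbtps1 and Mbtps2) free its active part, which turns on the genes of sterol synthesis and uptake. When sterols are plentiful, the INSIG proteins hold SCAP back. LXR are nuclear receptors for oxysterols that turn on sterol export and SREBP1, the relative of SREBP2 that drives fatty acid synthesis. In the early embryo, the extraembryonic endoderm takes up and secretes lipoproteins.

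Total counts ran from 24666260 to 40781415 per library, and levels are CPM, read counts relative to the library total, scaled by edgeR's TMM factors. In the T09-treated libraries the LXR targets Abca1 and Abcg1, which export cholesterol, had log2 ratios over untreated cells of 3.52 and 4.98 in EPSC and 2.74 and 3.92 in ESC. Nr1h2 was at 37.7 CPM in the siNr1h2 library and 53.9 CPM in siNT, a log2 ratio of -0.51. Summed pluripotency markers (7 genes) were 4119 to 6683 CPM in the stem cell libraries, 1867 CPM in siNr1h2 and 1932 CPM in siNT blastoids, and 469 CPM in Type I and 798 CPM in Type III blastoids. Summed primitive endoderm markers (7 genes) were 8.65 to 37.8 CPM, 727 and 801 CPM, and 2950 and 2111 CPM in the same order, and summed trophectoderm markers (9 genes) were 97.6 to 121 CPM, 257 and 266 CPM, and 1391 and 1550 CPM. Summed visceral endoderm markers (7 genes) were 60.8 to 223 CPM, 2091 and 2196 CPM, and 4142 and 3815 CPM. Of these 7, 5 or 6 were under 1 CPM in each stem cell library, and in untreated ESC Lrp2 made up 86.1 of the 87.8 CPM. In the stem cells Elf5 was at 0 counts in both EPSC libraries, Foxa2 and Afp in both ESC libraries, Apoa1 in both untreated libraries and Ttr in T09-treated ESC, while in the blastoids each of these was counted. The fibroblast markers (6 genes) summed to 5.44 to 23.1 CPM in all 8 libraries. The trophectoderm markers did not all move with their sum. Over T09-treated EPSC, 6 of the 8 tested were above 1 and 2 below in Type I, and 7 above and 1 below in Type III. The lowest log2 ratios were -2.42 and -1.89.

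Promoter sequence was available for 22 of the 28 members, all but Fdps, Fdft1, Sqle, Stard4, Npc1 and Scarb1. It is shown for Soat1, Lipa, Insig1, Sc5d, Ebp and Cyp51, the 6 members with the widest range of levels over the libraries among those 22. Each stretch is the 150 bases just before the annotated start site, 5′ to 3′ on the gene's strand, from RefSeq on GRCm38.p6. Capitals mark 3 short motifs on either strand: the CCAAT box (CCAAT), bound by NF-Y, the GC box (GGGCGG), bound by SP1, and the E-box (CACGTG). NF-Y and SP1 are known partners of the SREBP proteins. The stretches lie at chr1:156474329-156474478 (Soat1, minus strand), chr19:34527475-34527624 (Lipa, minus), chr5:28071262-28071411 (Insig1, plus), chr9:42264301-42264450 (Sc5d, minus), chrX:8193513-8193662 (Ebp, minus) and chr5:4104698-4104847 (Cyp51, minus).
Soat1: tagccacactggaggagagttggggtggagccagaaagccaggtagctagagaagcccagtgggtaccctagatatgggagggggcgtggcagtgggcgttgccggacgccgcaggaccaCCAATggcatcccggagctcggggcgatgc
Lipa: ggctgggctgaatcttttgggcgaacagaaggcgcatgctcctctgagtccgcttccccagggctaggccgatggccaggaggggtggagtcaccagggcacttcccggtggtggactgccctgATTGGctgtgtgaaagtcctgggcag
Insig1: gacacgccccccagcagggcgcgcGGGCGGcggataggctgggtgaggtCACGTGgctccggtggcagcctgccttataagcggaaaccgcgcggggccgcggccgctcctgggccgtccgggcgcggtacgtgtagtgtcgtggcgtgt
Sc5d: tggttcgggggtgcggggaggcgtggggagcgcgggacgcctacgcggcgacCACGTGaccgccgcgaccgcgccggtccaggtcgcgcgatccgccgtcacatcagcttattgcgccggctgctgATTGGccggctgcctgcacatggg
Ebp: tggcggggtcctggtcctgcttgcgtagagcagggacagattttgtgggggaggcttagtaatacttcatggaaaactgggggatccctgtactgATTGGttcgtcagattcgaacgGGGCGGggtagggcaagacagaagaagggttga
Cyp51: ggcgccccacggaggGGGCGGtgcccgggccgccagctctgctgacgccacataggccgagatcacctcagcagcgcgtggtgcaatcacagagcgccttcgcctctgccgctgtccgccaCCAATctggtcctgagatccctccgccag
The CCAAT box was absent from the Insig1 stretch and present in the other 5. The GC box was in the Insig1, Ebp and Cyp51 stretches, and the E-box was in those of Insig1 and Sc5d.

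Over the whole 300-base promoter windows, 18 of the 22 members held a CCAAT box, against 42.7% of 11850 genes that were counted in these libraries and had a promoter. A GC box was in 20 of 22 members against 66.7% of those genes, and an E-box in 5 of 22 (Dhcr7, Hsd17b7, Insig1, Sc5d and Scap) against 11.5%. The sterol regulatory element, searched as TCACNCCAC, was in 0 of 22 members and in 1.44% of those genes, which says only that these exact letters were not in the windows. Matches of different motifs overlapped at 0 places in the members' promoters.

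The members differed widely in how far their levels moved over the 8 libraries. Soat1, the enzyme that esterifies cholesterol for storage, spanned 52.3-fold from its lowest to its highest library, and Lipa, the lysosomal lipase that frees cholesterol from its esters, spanned 12.95-fold. Next came Insig1 (6.23-fold), Stard4 (4.51-fold), Sc5d (3.80-fold) and Ebp (3.23-fold), and the narrowest was the squalene epoxidase gene Sqle (1.40-fold). Type I blastoids held the highest level of 9 members and Type III blastoids of 8. Of the 16 synthesis enzymes, Type III held the highest level of 7 and Type I of 0. The lowest level of 9 members was in untreated ESC, and of another 9 in siNr1h2 blastoids.

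**Figure D1:**
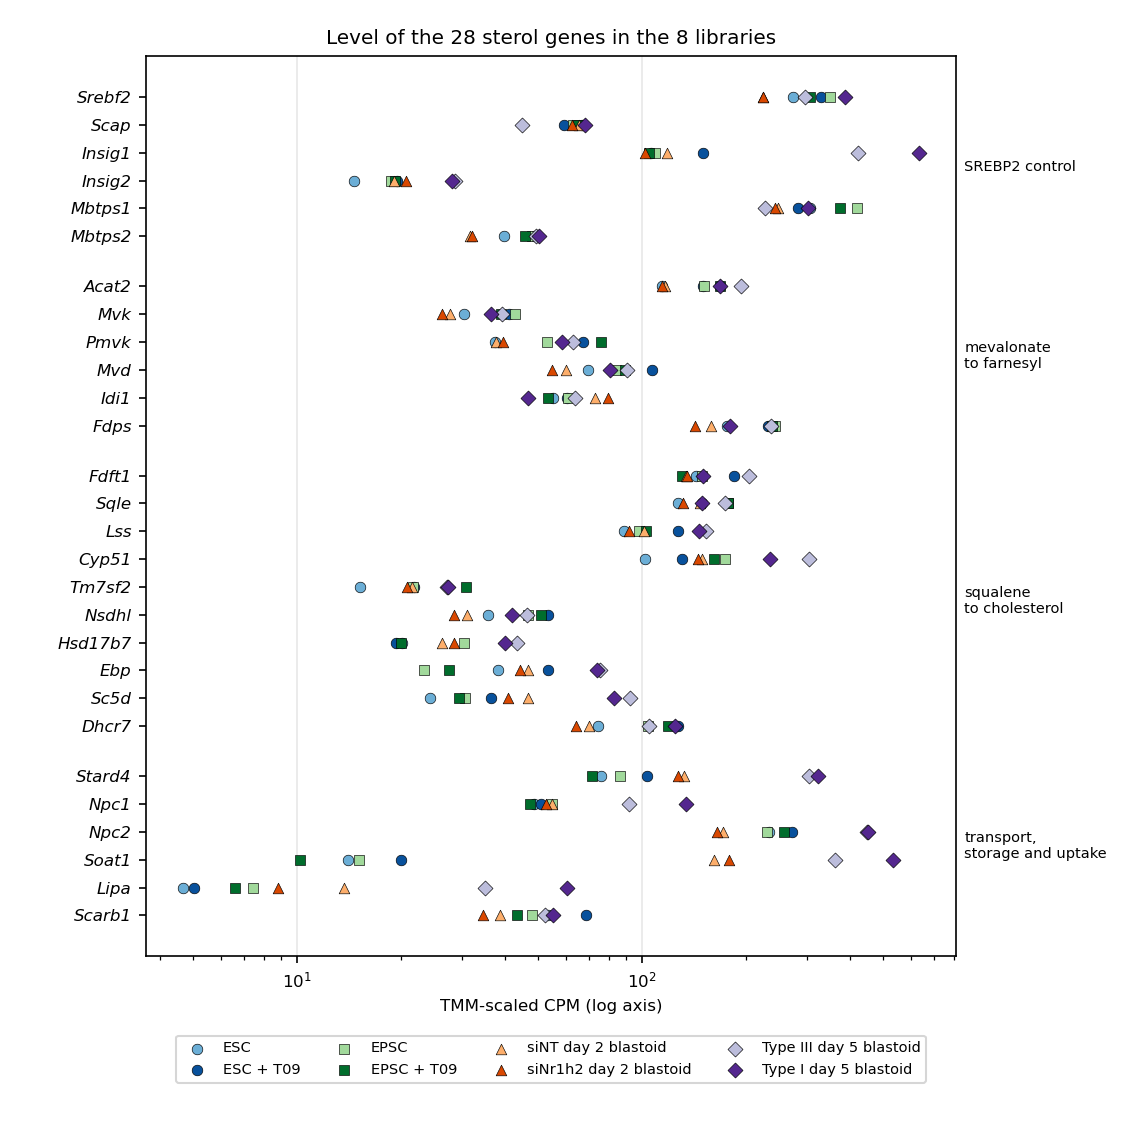
Level of each of the 28 genes (TMM-scaled CPM, log axis) in each of the 8 libraries, 1 point per library, grouped by role. Soat1 spans 52.3-fold and Sqle 1.40-fold, and the day 5 points (diamonds) stand furthest right for Soat1, Lipa, Insig1, Stard4, Npc1 and Npc2.

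Among the genes of SREBP2 control, Insig1 stood out on day 5. Its level was 106 CPM in ESC, 150.5 in T09-treated ESC, 109 in EPSC, 104 in T09-treated EPSC, 118 in siNT and 102 in siNr1h2 blastoids, and 423 in Type III and 636 in Type I blastoids. Both day 5 libraries thus lay well above the other 6, which stayed within 102 to 150.5 CPM. Insig2, the other gene of the pair, was at 14.6 CPM in ESC, 19.5 in T09-treated ESC, 18.7 and 19.3 in untreated and treated EPSC, 19.1 and 20.7 in siNT and siNr1h2, and 28.66 and 28.03 in Type III and Type I. Per kilobase of exon, the level of Insig1 was 5.55 to 8.65 times that of Insig2 in the stem cells and on day 2, 16.6 times in Type III and 25.5 times in Type I. On this per-length scale Insig1 ranked 1st of the 28 members in both day 5 libraries and 2nd to 9th in the others.

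Srebf2 itself spanned 1.72-fold. It was at 274 CPM in ESC, 330 in T09-treated ESC, 349 in EPSC, 306 in T09-treated EPSC, 224 in both day 2 libraries, 296 in Type III and 386 in Type I, so that day 2 was lowest and Type I highest. Scap was within 59.5 to 68.3 CPM in 7 libraries and at 44.8 CPM in Type III. Mbtps1 was highest in EPSC (419.7 CPM) and T09-treated EPSC (374 CPM), and lowest in Type III (227 CPM). Mbtps2 was at 31.7 and 32.1 CPM on day 2 and at 39.8 to 50.3 CPM elsewhere.

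The 6 enzymes up to farnesyl diphosphate spanned from 1.63-fold (Mvk) to 2.02-fold (Pmvk) over the 8 libraries. Their summed level was 483 CPM in ESC, 658 in T09-treated ESC, 636 and 663 in untreated and treated EPSC, 474 and 456 in siNT and siNr1h2, 686 in Type III and 569.6 in Type I. Fdps, which makes farnesyl diphosphate, ranged from 142 CPM in siNr1h2 to 243 CPM in EPSC. Acat2, which joins acetyl-CoA units and has a near-identical copy, Acat3, that could share its reads, ranged from 114 CPM in ESC and siNr1h2 to 193 CPM in Type III. Mvk, the mevalonate kinase, ranged from 26.4 to 42.9 CPM. Pmvk ranged from 37.5 CPM in ESC to 75.9 CPM in T09-treated EPSC, and Mvd from 54.7 CPM in siNr1h2 to 107 CPM in T09-treated ESC.

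The 10 enzymes from squalene to cholesterol summed to 669 CPM in ESC, 903 in T09-treated ESC, 854 and 850.1 in untreated and treated EPSC, 775 and 731 in siNT and siNr1h2, 1226 in Type III and 1071 in Type I. Their day 5 sums were the highest, and Cyp51, Sc5d and Ebp were each highest there. Cyp51, the lanosterol demethylase, was at 102 and 130.4 CPM in untreated and treated ESC, 174 and 161 in EPSC, 149 and 145 on day 2, 306 in Type III and 234 in Type I. Sc5d, the sterol desaturase, was at 24.2 and 36.4 CPM in ESC, 30.6 and 29.5 in EPSC, 46.8 and 40.9 on day 2, 92.2 in Type III and 82.8 in Type I. Ebp, the sterol isomerase, was at 38.1 and 53.5 CPM in ESC, 23.3 and 27.6 in EPSC, 46.7 and 44.2 on day 2, 75.3 in Type III and 74.0 in Type I. The day 5 libraries lay above the other 6 for each of these 3. Exons of Cyp51 overlap those of Akap9 on the other strand, and as the strand setting of the counting is not given in the sources used here, part of its count could belong there.

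The 6 genes of transport, storage and uptake summed to 429.7 to 519 CPM in the stem cells, 566 and 572 CPM on day 2, 1295 CPM in Type III and 1558 CPM in Type I. Soat1 was at 14.02 CPM in ESC, 20.0 in T09-treated ESC, 15.1 in EPSC, 10.2 in T09-treated EPSC, 161 in siNT, 179 in siNr1h2, 363 in Type III and 535 in Type I. The 4 stem cell libraries, both day 2 libraries and both day 5 libraries therefore formed 3 levels that did not overlap. Per kilobase, Soat1 ranked 27th of the 28 members in the 4 stem cell libraries, 15th in both day 2 libraries, 10th in Type III and 5th in Type I. Lipa was at 4.67 and 5.02 CPM in untreated and treated ESC, 7.44 and 6.60 in EPSC, 13.7 in siNT, 8.81 in siNr1h2, 34.98 in Type III and 60.5 in Type I. It ranked last per kilobase everywhere but in the day 5 libraries.

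Stard4, which carries cholesterol between membranes, was at 76.0 and 103 CPM in ESC, 86.3 and 71.6 in EPSC, 133 and 127 on day 2, 305 in Type III and 323 in Type I. Npc1 and Npc2 together pass cholesterol out of the lysosome. Npc1 was at 47.5 to 54.9 CPM in the stem cells and on day 2, 91.9 in Type III and 134 in Type I, and Npc2 was at 165 to 272 CPM, 447 and 450.4 in the same order. Both thus had their highest levels on day 5. Exons of Npc1 overlap those of Rmc1, and exons of Fdft1 those of Ctsb, on the other strand, and exons of Mbtps2 overlap those of Yy2, and exons of Fdps those of Gm43738, on the same strand. Part of the counts of these 4 members could belong to the overlapping genes. Scarb1, the HDL receptor, differed from the other 5 in being highest in T09-treated ESC (68.7 CPM), with 52.2 and 55.3 CPM on day 5 and 34.7 and 38.7 CPM on day 2.

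**Figure D2:**
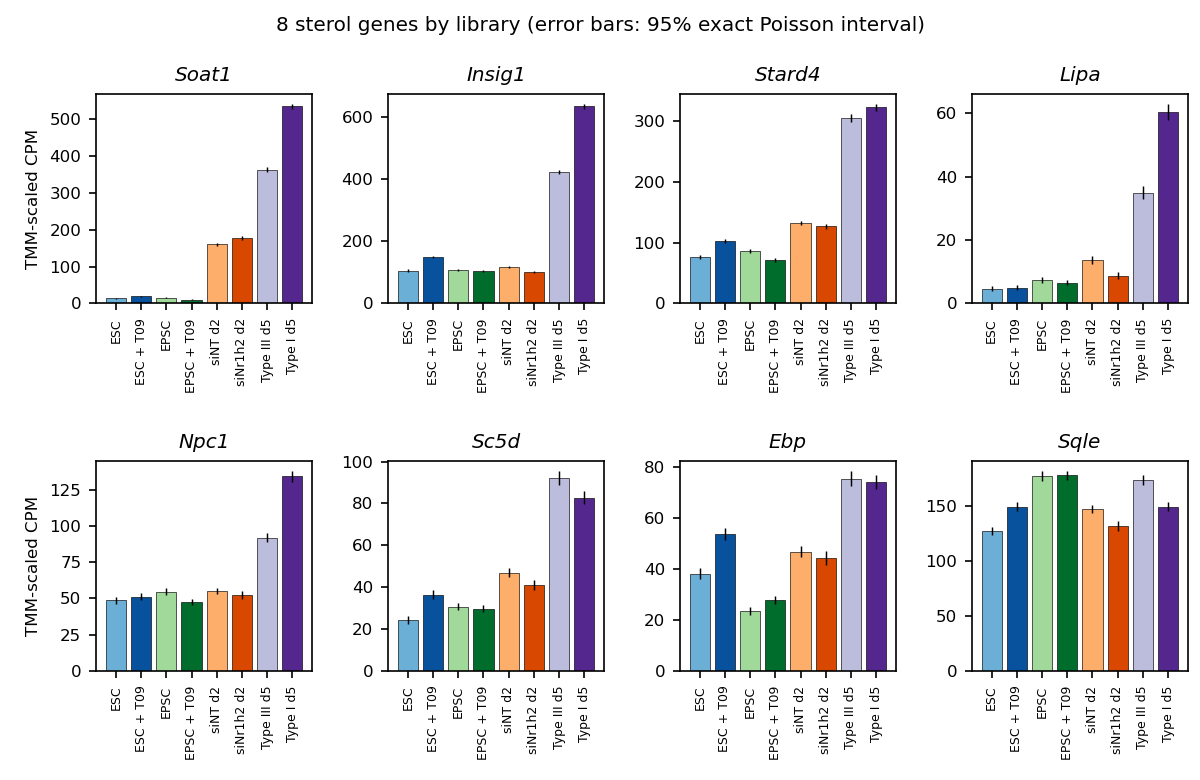
Level (TMM-scaled CPM, from 0) of 8 of the genes in each library, with error bars for the 95% exact Poisson interval, which covers counting error only. Soat1 stands at 3 levels, in stem cells, on day 2 and on day 5, Insig1 is high only in Type III (423 CPM) and Type I (636 CPM), and Sqle differs little.

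Day 5 blastoids were then set against T09-treated EPSC, the cells they are labelled as derived from. Soat1, Lipa, Insig1, Stard4, Sc5d and Ebp were higher in both types, while the enzymes up to farnesyl diphosphate differed little. A gene was called different between libraries where the ratio was at least 2-fold, its 95% exact interval excluded 1 and at least 1 library held 20 counts. By this rule 7 of 28 members were higher and 0 lower in Type I, against 22.7% of 14378 genes higher and 18.1% lower. In Type III 7 of 28 were higher and 0 lower, against 21.7% of 14395 genes higher and 16% lower. The share of members that were higher was thus close to that of all genes. As these are bulk libraries, more cells of a type and more RNA per cell cannot be told apart. The endoderm and trophectoderm markers given above differed between the same libraries, and their part in these differences was not tested. Both ratios share the T09-treated EPSC library.

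In Type I over T09-treated EPSC, Soat1 was 52.0-fold higher (log2 5.70, interval 5.57 to 5.85) and Lipa 9.11-fold (log2 3.19, 3.01 to 3.39). Insig1 was 6.09-fold higher (log2 2.61, 2.56 to 2.65), Stard4 4.51-fold, Npc1 2.82-fold, Sc5d 2.80-fold and Ebp 2.68-fold. In Type III, Soat1 was 35.3-fold higher (log2 5.14, 5.01 to 5.29), Lipa 5.27-fold, Stard4 4.26-fold, Insig1 4.05-fold, Sc5d 3.12-fold, Ebp 2.72-fold and Hsd17b7, the sterol ketoreductase, 2.16-fold. The members that passed in 1 type only lay on either side of the threshold. Hsd17b7 was 2.00-fold higher in Type I by rounding and did not reach it (log2 1.00, 0.88 to 1.13), and Npc1 had a log2 ratio of 0.95 in Type III (0.87 to 1.04). At 1.5-fold, 9 members were higher and 0 lower in Type I, and 11 were higher and 1, Mbtps1 with a log2 ratio of -0.72, lower in Type III. Over all genes 30.6% were higher and 28% lower by 1.5-fold in Type I, and 29.4% and 26.5% in Type III.

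By role, the median log2 ratio of the 6 transport and storage genes was 1.83 in Type I and 1.52 in Type III. That of the 10 enzymes from squalene on was 0.36 and 0.61, and that of the 6 enzymes up to farnesyl diphosphate was -0.17 and 0.02. Over all 28 members the median was 0.27 in both types, beside -0.03 and 0.00 for all genes tested. The early enzymes therefore had ratios near 1, with Fdps at -0.41 and Pmvk, the phosphomevalonate kinase, at -0.38 in Type I.

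The T09-treated EPSC library held the lowest Soat1 level of all. Against untreated EPSC instead, a reference chosen after the data were seen, Soat1 was 35.2-fold higher in Type I and 23.9-fold in Type III, and Insig1 5.82-fold and 3.87-fold. Hsd17b7 was then only 1.31-fold and 1.42-fold higher. Pmvk, below 1 over treated EPSC, was above 1 over untreated EPSC, with log2 ratios of 0.14 and 0.25. Fdps stayed below 1 (-0.44 and -0.04). With that reference 7 of 28 members were higher and 0 lower in Type I, against 21.1% and 18.4% of 14474 genes. In Type III 6 were higher and 0 lower, against 20.2% and 16.8% of 14490 genes.

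**Figure D3:**
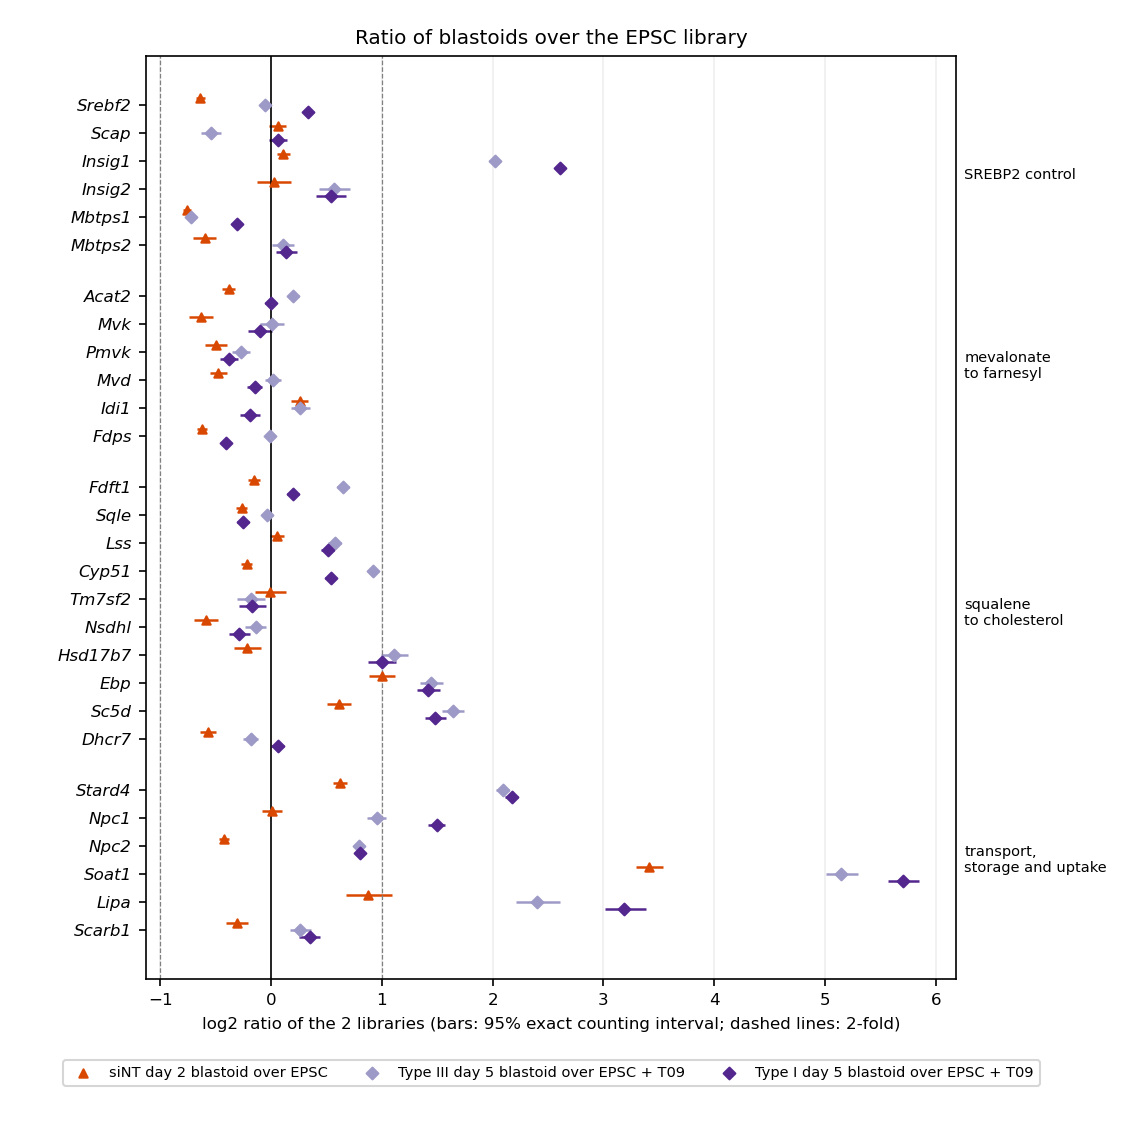
Log2 ratio of siNT day 2 blastoids over untreated EPSC, and of Type III and Type I day 5 blastoids over T09-treated EPSC, for each gene, with 95% exact counting intervals and dashed lines at 2-fold. Soat1 lies furthest right in all 3 (3.41, 5.14 and 5.70), and the enzymes from Acat2 to Fdps lie near 0 on day 5.

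Of related genes outside the set, Soat2, the second enzyme that esterifies cholesterol, was at 1.85 CPM in T09-treated EPSC, 78.6 in Type I and 78.0 in Type III, 41.3-fold and 40.9-fold higher. Among 22 genes of sterol transport and esters, 11 were higher and 2 lower in Type I, and 10 higher and 3 lower in Type III. Gramd1c, from the family that moves cholesterol from the plasma membrane, was also higher, from only 5 counts in T09-treated EPSC to 330 and 225. In the other direction, the lowest log2 ratio among these 22 genes was -1.69 in Type I and -5.28 in Type III. Of 10 further genes of sterol synthesis and its redox partners, 2 were higher in each type and 0 lower: Sec14l2, a lipid-binding protein (log2 3.65 and 3.06), and Acat1, a mitochondrial thiolase (1.30 and 1.64). Of 14 genes of the isoprenoid branch, which uses farnesyl diphosphate for other products, Coq2 was higher in both types (1.15 and 1.00) and Zmpste24 in Type I (2.02-fold). Of 11 genes of SREBP1 and fatty acid synthesis, 1 was higher in each type, the malic enzyme gene Me1 (3.32 and 3.06), and 0 were lower in Type I but 4 in Type III. The lowest log2 ratio among these 11 was -1.74 in Type III. The reference library was itself treated with T09. Over untreated EPSC it had 3 of these 11 genes higher by 2-fold and 0 lower, with a median log2 ratio of 0.57. Of the 22 transport and ester genes it had 3 higher and 0 lower. Day 5 ratios over untreated EPSC are not given for these lists, and the part of T09 in their lower ratios was not tested. Of 6 genes of oxysterol and bile acid synthesis, 2 were higher and 1 lower in Type I, and 3 higher and 0 lower in Type III.

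On day 2, siNT blastoids were compared with untreated EPSC. Soat1 and Ebp were higher and no member was lower by 2-fold, while most synthesis enzymes and Srebf2 were lower by less than that. The 2 of 28 members higher compare with 14.5% of 14496 genes, and the 0 lower with 11.3%. Soat1 was 10.6-fold higher (log2 3.41, 3.29 to 3.54), and Ebp was just inside the threshold at 2.00-fold (log2 1.00, 0.89 to 1.12). At 1.5-fold, Lipa (0.88), Stard4 (0.62) and Sc5d (0.61) were higher as well, which made 5, and 6 were lower: Mbtps1 (-0.76), Srebf2 (-0.64), Mvk (-0.63), Fdps (-0.62), Mbtps2 (-0.60) and Nsdhl (-0.59), a decarboxylating sterol dehydrogenase. All genes gave 20.3% higher and 19.8% lower at 1.5-fold. The median of the 28 members was -0.22 and that of all genes -0.04. Of the 16 synthesis enzymes, 12 had ratios below 1, with a median log2 ratio of -0.49 for the 6 up to farnesyl diphosphate. Insig1 had a log2 ratio of 0.11 and Npc1 of 0.01, so that neither showed on day 2 the difference it had on day 5. Outside the set, 6 of 22 genes of sterol transport and esters were higher and 3 lower, with Soat2 at 2.80 and Abca1 at -2.41. The day 2 reference was untreated EPSC and the day 5 reference treated EPSC, and the media and transfection differed too.

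Type I and Type III blastoids were compared with each other. Type I had more of the transport and SREBP2 control genes and slightly less of most synthesis enzymes, and every difference was under 2-fold. Thus 0 of 28 members passed, against 7.68% of 13907 genes. At 1.5-fold 3 were higher in Type I and 0 lower, namely Lipa (log2 0.79, 0.69 to 0.90), Scap (0.61, 0.51 to 0.70) and Insig1 (0.59, 0.56 to 0.62), against 5.99% of all genes higher and 10.6% lower. Soat1 (0.56) and Npc1 (0.54) lay just outside that limit.

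All 6 transport and storage genes had ratios above 1 (median log2 0.31), 4 of them with counting intervals that excluded 1, as did 34.2% of all genes in that direction. Of the 6 SREBP2 control genes 5 were above 1 (median 0.40), with Srebf2 at 0.38 and Mbtps1 at 0.41. In contrast 14 of the 16 synthesis enzymes were below 1 (median -0.15), 12 of them with intervals that excluded 1, as did 31.9% of all genes in that direction. The lowest were Idi1, the isopentenyl isomerase (-0.45), Fdft1, the squalene synthase (-0.45), Fdps (-0.40) and Cyp51 (-0.38). Dhcr7, which makes cholesterol from its last precursor, went the other way (0.25, 0.18 to 0.31). With DESeq2-type size factors 13 of the 16 were below 1 and the median was -0.11. Among related genes, the LXR targets Abca1 (207 CPM in Type I and 5.38 in Type III, log2 5.25) and Abcg1 (3.49) differed far more than any member, as did Srebf1, the gene of SREBP1 (283 and 86.8 CPM, log2 1.71). Summed primitive endoderm markers were 2950 CPM in Type I and 2111 CPM in Type III, and visceral endoderm markers 4142 and 3815 CPM. Summed pluripotency markers were lower in Type I (469 against 798 CPM), with 5 of 7 lower by at least 2-fold and a median log2 ratio of -1.07. Trophectoderm markers summed to 1391 and 1550 CPM, and 7 of the 8 tested had ratios below 1 (median -0.38). The part of these cell types in the members' differences was not tested.

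**Figure D4:**
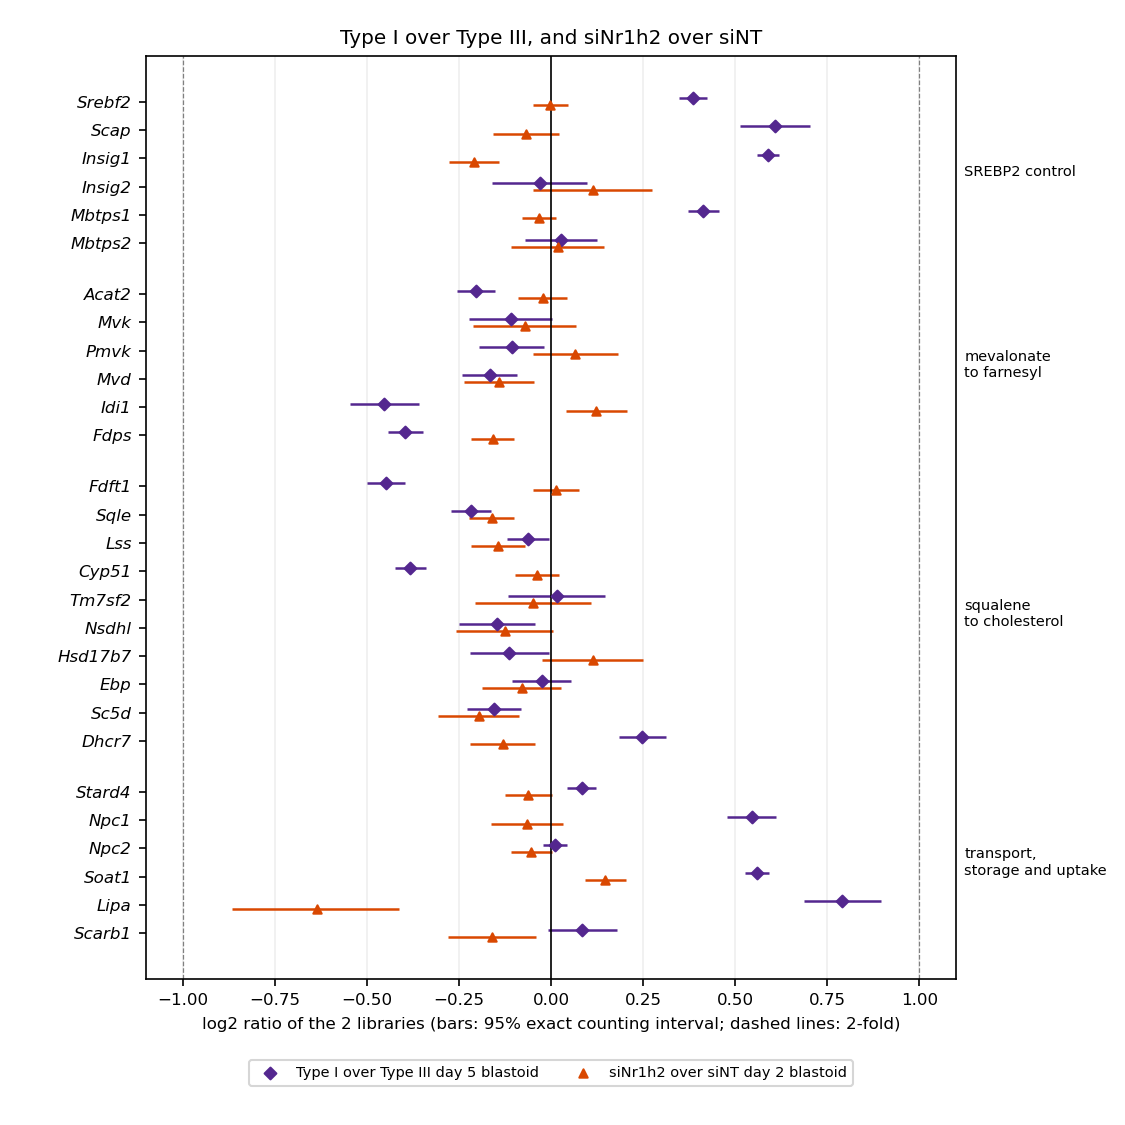
Log2 ratio of Type I over Type III day 5 blastoids and of siNr1h2 over siNT day 2 blastoids for each gene, with 95% exact counting intervals and dashed lines at 2-fold. The transport and control genes lie mostly right of 0 and the synthesis enzymes left of it in Type I over Type III (medians 0.31, 0.40 and -0.15), and Lipa (-0.64) is the furthest point in siNr1h2 over siNT.

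T09 was compared with no treatment in each stem cell state. In ESC the treated library had modestly more of nearly all members, most of all the synthesis enzymes Pmvk, Dhcr7, Mvd and Sc5d. In EPSC the members lay on both sides of 1, and Pmvk and Tm7sf2, a sterol reductase, were the highest. No member reached 2-fold in either state, against 3.91% of 13412 genes in ESC and 4.19% of 13632 in EPSC.

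Pmvk was at 37.5 CPM in untreated and 67.3 in T09-treated ESC, and at 53.1 and 75.9 CPM in EPSC. Dhcr7 was at 74.5 and 127 CPM in ESC and at 104 and 119 CPM in EPSC. Both were higher with T09 in both states. Mvd, the mevalonate diphosphate decarboxylase, was at 69.9 and 107 CPM in ESC and at 83.8 and 89.2 CPM in EPSC. Tm7sf2 was at 15.2 and 21.8 CPM in ESC and at 21.7 and 30.8 CPM in EPSC. Its exons overlap those of Vps51 on the same strand, so that reads of these genes may not be told apart.

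In ESC 25 of 28 members had ratios above 1, 23 of them with intervals that excluded 1, as did 27% of all genes in that direction. The members' median log2 ratio was 0.40, that of all genes 0.01. At 1.5-fold 4 members were higher, namely Pmvk (0.84, 0.74 to 0.94), Dhcr7 (0.77, 0.70 to 0.84), Mvd (0.62, 0.54 to 0.69) and Sc5d (0.59, 0.46 to 0.72), and 0 were lower, against 4.03% and 5.61% of all genes. By role the median was 0.50 for the enzymes from squalene on, 0.42 for those up to farnesyl diphosphate, 0.29 for transport and storage and 0.28 for SREBP2 control. Insig1 (0.50) and Srebf2 (0.27) were above 1, and Scap (-0.17) and Mbtps1 (-0.11) below.

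In EPSC 12 members were above 1 and 16 below, with a median of -0.06. Intervals excluded 1 for 9 members above and 12 below, against 27.7% and 28.7% of all genes, which include genes with far fewer counts. Pmvk (0.51, 0.43 to 0.60) and Tm7sf2 (0.51, 0.38 to 0.63) were highest. At 1.5-fold only Hsd17b7 passed, and it was lower (-0.61, -0.74 to -0.48), against 7.62% of all genes lower. Hsd17b7 was at 30.5 CPM in untreated and 20.0 in treated EPSC, and at 20.1 and 19.4 CPM in ESC. For 9 of 28 members the counting intervals lay above 1 in ESC and below 1 in EPSC (Srebf2, Insig1, Mvk, Idi1, Fdft1, Cyp51, Stard4, Soat1 and Scarb1), and for 0 the reverse, against 7.69% and 7.23% of the 12944 genes tested in both states. With 1 library per state and treatment this difference could not be tested. Summed primitive endoderm markers were at 37.8 CPM in untreated and 24.0 in treated EPSC, summed visceral endoderm markers at 223 and 117 CPM, and summed fibroblast markers at 23.1 and 8.10 CPM. In ESC the sums were 8.65 and 8.68 CPM, 87.8 and 60.8 CPM, and 5.61 and 5.44 CPM. In EPSC 5 of the 7 visceral endoderm markers were under 1 CPM in both libraries. Of the 6 fibroblast markers, 3 were under 1 CPM untreated and 5 with T09. In ESC Lrp2 alone made up 86.1 and 59.5 CPM of the visceral endoderm sums. These 2 sums thus rest on few genes and do not show that such cells were present. Their part in the EPSC ratios was not tested.

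**Figure D5:**
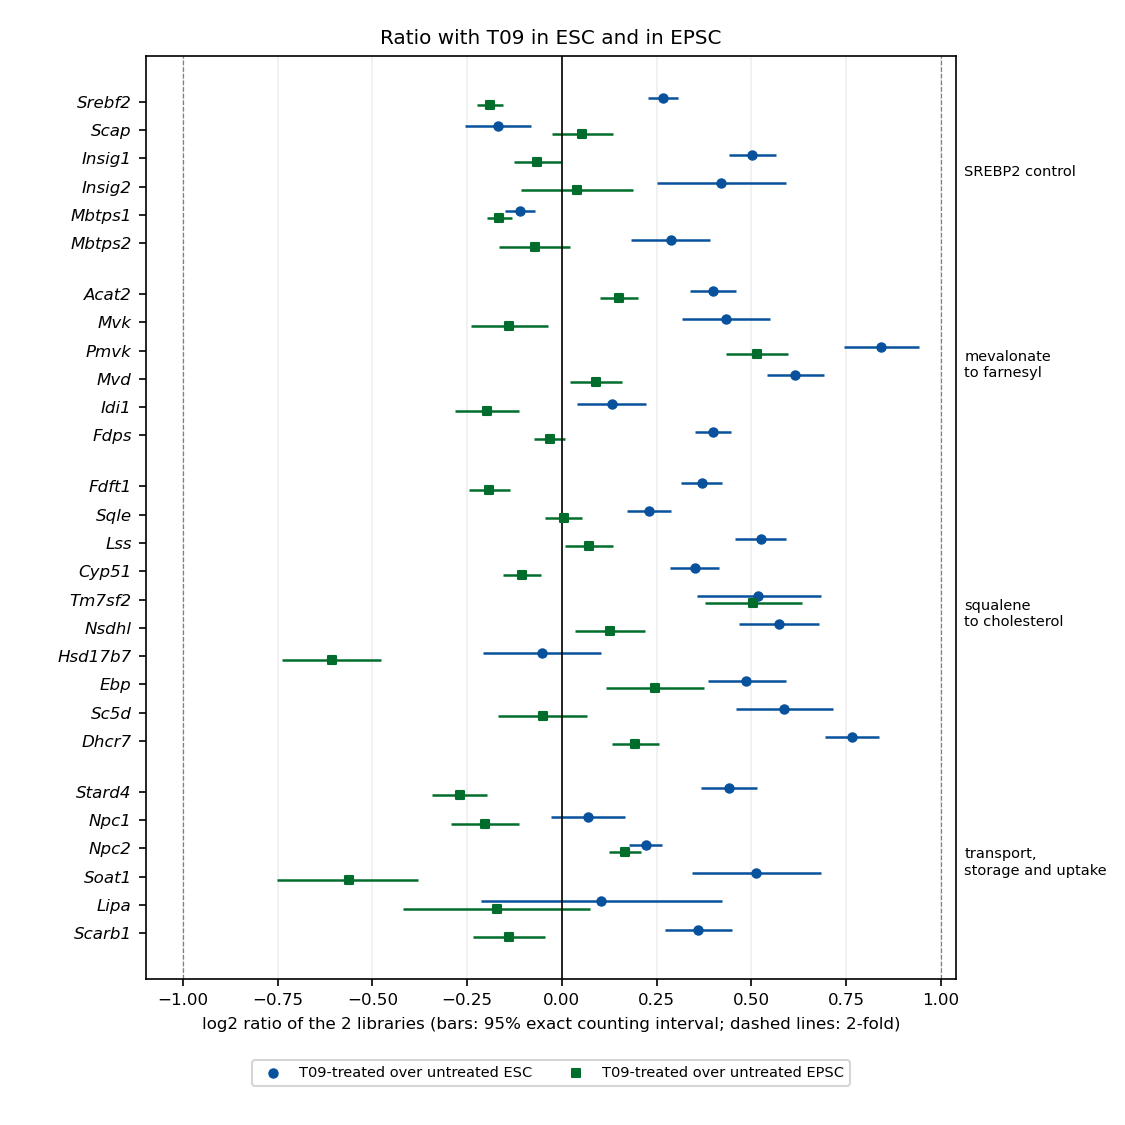
Log2 ratio of T09-treated over untreated cells in ESC and in EPSC for each gene, with 95% exact counting intervals and dashed lines at 2-fold. In ESC 25 of 28 points lie right of 0 (median 0.40), while in EPSC 16 of 28 lie left of it (median -0.06).

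The 4 stem cell libraries were also fitted together with edgeR's quasi-likelihood test, with a term for state and a term for T09 and Benjamini-Hochberg adjustment over 14477 genes. The fit has 1 residual degree of freedom and no replicates behind its SE and p-values. For T09, 0 of 28 members passed at 0.05, where 15 genes or 0.104% of all did. At an unadjusted p below 0.05 there were 8 members, all higher with T09 (Pmvk, Tm7sf2, Dhcr7, Ebp, Mvd, Nsdhl, Lss and Acat2), which is 28.6% of the members beside 6.07% of all genes. All 8 are synthesis enzymes; Lss is the lanosterol synthase. Pmvk came closest, with a log2 difference of 0.68 (SE 0.129, adjusted p = 0.158 in edgeR), and was higher in 2 of 2 states. The fit favours genes that differ alike in both states, so the shared direction gives no separate support. Pmvk was called without the filter on low counts (adjusted p = 0.0434 in edgeR) and by DESeq2 (adjusted p = 0.02), which gave 1 member each, and limma-voom gave 0. Over all genes these 3 settings called 46, 35 and 15, beside 15 in the main fit. Of related lists, 5 of 11 genes of SREBP1 and fatty acid synthesis rose with T09, Srebf1 among them (log2 1.61, SE 0.104, adjusted p = 0.000194 in edgeR), as did 3 of 21 of sterol transport and esters (Abca1, Abcg1 and Mylip) and 1 of 11 of sterol-regulated degradation (Rnf145). Of 10 further genes of sterol synthesis 0 passed.

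EPSC and ESC were compared for the state of the cells, which differed in medium as well, so that state and medium cannot be told apart. Over both treatments Cyp51, Tm7sf2, Mbtps1 and Sqle were higher in EPSC and Ebp was lower. These 5 of 28 passed in the edgeR fit, against 28.8% of 14477 genes. Cyp51 had a log2 difference of 0.52 (SE 0.125, adjusted p = 0.0124), Tm7sf2 of 0.49 (SE 0.137, adjusted p = 0.0236), Mbtps1 of 0.42 (SE 0.102, adjusted p = 0.0139) and Sqle of 0.35 (SE 0.107, adjusted p = 0.034). Ebp had a log2 difference of -0.84 (SE 0.137, adjusted p = 0.00172). Each of the 5 had the same direction with and without T09. With DESeq2, Mbtps1, Cyp51 and Ebp passed and Tm7sf2 and Sqle did not, and without the filter and with limma-voom Scarb1 passed as well, lower in EPSC.

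Within each treatment the members looked different. In untreated cells 24 of 28 were higher in EPSC, with a median log2 ratio of 0.34 beside 0.03 for all genes. None reached 2-fold, against 17.6% of 13847 genes. At 1.5-fold Cyp51 (0.76), Lipa (0.66) and Hsd17b7 (0.60) were higher and Ebp (-0.71) lower, against 16% and 13.9% of all genes. With T09, 18 of 28 were lower in EPSC, with a median of -0.08. None reached 2-fold, against 18.1% of 13712 genes, and at 1.5-fold Soat1 (-0.96), Ebp (-0.95) and Scarb1 (-0.66) were lower, against 16.4% of all genes. The untreated comparison and that of T09 in ESC share the untreated ESC library, in which 9 members, 7 of them synthesis enzymes, had their lowest level.

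Knockdown of Nr1h2 was compared with siNT in day 2 blastoids. The members barely differed, and Lipa, which was lower, had the only ratio past 1.5-fold. None reached 2-fold, against 3.66% of 14127 genes. Lipa was at 8.81 CPM in siNr1h2 and 13.7 CPM in siNT, a log2 ratio of -0.64 (-0.87 to -0.41) from 231 and 540 counts, and 4.02% of all genes were lower by 1.5-fold. Of the 28 members 21 had ratios below 1, 9 with intervals that excluded 1, as did 20.8% of all genes in that direction, and the median was -0.06 beside -0.01 for all genes. Insig1 (-0.21), Sc5d (-0.20), Fdps (-0.16) and Sqle (-0.16) were among the 9, and Soat1 (0.15) and Idi1 (0.12) lay above 1 with intervals that excluded it. Srebf2 was at 224 CPM in both. All 7 visceral endoderm markers also had ratios below 1, 6 with intervals that excluded it (median -0.36), and their part in the Lipa difference was not tested. No gene of the related lists passed at 2-fold. The Nr1h2 transcript was itself only 1.43-fold lower in the siNr1h2 library.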

How the data were processed

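The deposited table held raw read counts per gene symbol for 8 mouse RNA-seq libraries, whole numbers made by the authors from DNase-treated total RNA and a directional library kit, per the labels' protocols. The submitters' processing notes name STAR, HTSeq, Cuffnorm and the build mm9. Versions, annotation and strand setting are not given in the sources used here. The members, related gene lists and markers were chosen with earlier results of these data known, and all members are named. Of each related list up to 2 genes with a large ratio are named in some comparisons, among those called with at least 50 counts in 1 library. Not all such genes are named, so a related gene that is not named may still have been called. Symbols were used as deposited. A result on 1 related gene is not reported here.

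Counts were scaled by TMM (edgeR 4.0.16, R 4.3.3). Log2 ratios of 2 libraries used a prior count of 2 and a 95% exact conditional Clopper-Pearson interval. A call needed a ratio of at least 2-fold, an interval that excluded 1 and 20 counts in 1 library. With 1 library per group such a difference has no replicate check and no p-value. The intervals cover counting error only, since each group has 1 library. They are narrower for genes with more counts. Most members had far more than the 20 counts a tested gene may have. A share of members whose intervals excluded 1 is therefore not matched in counts to the share of all genes given beside it. PCR copies of a molecule may be counted as separate reads, which would make the intervals too narrow even for that error. A count of 0 allows 0.0741 to 0.114 CPM, from 3 counts. ESC and EPSC with and without T09 were fitted together by edgeR's quasi-likelihood method with terms for state and T09 (filterByExpr, Benjamini-Hochberg threshold 0.05). This fit leaves 1 residual degree of freedom, which is the difference in T09 response between the states. Its p-values rest on that and on a dispersion shared over genes, not on the spread between replicates. Both procedures were run on simulated data. The simulated counts held no difference between states, and those for the ratios of 2 libraries held counting error only. They therefore do not show how the procedures perform with the variation of real libraries. Lengths for levels per kilobase are exon unions of GENCODE M21, and promoter windows of 300 bases are from RefSeq on GRCm38.p6, neither being the authors' build. The alternatives tried were scaling by library totals or by DESeq2-type size factors, other count minimums and prior counts, a 1.5-fold threshold, no filter, DESeq2 1.42.0 and limma-voom (limma 3.58.1), and, chosen after the data were seen, untreated EPSC as the reference for day 5.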

Additional observations from a re-analysis of the deposited data

Results flagged for a closer look

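The T09 response of 2 members lay on opposite sides of 1 in the 2 stem cell states, with counting intervals that excluded 1 in both and a difference of at least 1.5-fold. Of the 12944 genes tested in both states, 4.4% met the same rule. Stard4 had a log2 ratio of 0.44 in ESC and -0.27 in EPSC, a difference of 0.71. Soat1 had a log2 ratio of 0.51 in ESC and -0.56 in EPSC, a difference of 1.07. These differences were not tested, since 1 library per state and treatment leaves no residual degrees of freedom for an interaction. The 4 Soat1 counts were 465 and 717 in ESC and 578 and 414 in EPSC. Summed primitive endoderm, visceral endoderm and fibroblast markers were at 37.8, 223 and 23.1 CPM in untreated and 24.0, 117 and 8.10 CPM in treated EPSC, and their part in the EPSC ratios was not tested. The visceral endoderm and fibroblast sums rest on few genes. In treated EPSC 5 of 7 and 5 of 6 of these markers were under 1 CPM.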

How the results depend on the processing

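Of 129 recomputed counts and medians, 115 kept within 1.5 times the count, or within the counting interval of the median. The 115 include the ratios of 2 libraries recomputed with no minimum count and with a minimum of 100 counts. Those values could not change, since each member had at least 100 counts in 1 library of every pair, and they say nothing about stability. At 1.5-fold in place of 2-fold, the members called went from 0 to 1 for T09 in EPSC, 4 for T09 in ESC, 4 for EPSC over ESC untreated and 3 with T09, 1 for siNr1h2 over siNT and 3 for Type I over Type III, from 2 to 11 for siNT over EPSC and from 7 to 12 for Type III over treated EPSC. With a prior count of 10, siNT over EPSC went from 2 to 1. The members' median for Type I over Type III was -0.03 and became 0.015 with DESeq2-type size factors, and that for siNT over EPSC was -0.22 and became -0.12 with library totals. In the fit of T09 the count went from 0 to 1 without the filter and to 1 with DESeq2, and in the fit of state from 5 to 3 with DESeq2. Over all genes the calls for T09 went from 15 to 46 and 35, and those for state from 4172 to 3073. The causes were not tested. No scaling moved the median of all genes by more than 0.091 on the log2 scale. No paired analysis was possible because each group has 1 library and the labels give no replicate numbers. Leaving out a library would leave a group empty, so that was not run. Counting precision limits Lipa most, with 155 to 284 counts in the stem cell libraries.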
